A study of Mus musculus with 20 samples.

Results

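Aldehyde dehydrogenases (Aldh) and aldo-keto reductases (Akr) were described in the livers of male mice in which Hsd17b12 had been deleted in hepatocytes. The members were all genes of the deposited tables whose symbol starts with Aldh or Akr followed by a digit, without Akr1d1 and pseudogenes, which gave 36 of 20914 genes, 21 Aldh and 15 Akr. RNA was sequenced from the left lateral liver lobe of 10 knockout (KO) mice, genotype HSD17B12lox/lox;Alb-CreCre/WT, and 10 wild-type (WT) mice, genotype HSD17B12lox/lox;Alb-CreWT/WT, all of the strain label LiB12cKO and aged 8 weeks. Both genotypes carried the floxed gene on both chromosomes, and Cre recombinase, driven in hepatocytes by the albumin promoter, was present in KO mice only, so an effect of Cre itself and one of the lost gene cannot be told apart. Hsd17b12 encodes a 3-ketoacyl-CoA reductase of fatty acid elongation, and the comparison asks how its loss in hepatocytes alters these 2 enzyme families.

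Aldehydes arise in liver from ethanol, membrane lipids, sphingolipids, amino acids, retinol and sugars. Aldehyde dehydrogenases oxidize them irreversibly to carboxylic acids with NAD or NADP, whereas aldo-keto reductases reduce aldehydes and ketones, among them steroids and sugars, to alcohols with NADPH. Several genes of both families are known targets of NRF2, the transcription factor of the antioxidant response, or of the aryl hydrocarbon receptor (AHR), and the Akr1c enzymes set the amounts of active steroid hormones.

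Hsd17b12 itself stood at 23.9 to 27.9 RPKM in KO livers and at 66.9 to 96.2 RPKM in WT livers, with no overlap (log2 fold change -1.66, SE 0.0644, edgeR adjusted p = 3.85e-14). RPKM is the authors' normalized signal per kilobase of gene length and allows levels of different genes to be compared. The fragments assigned to genes numbered 16693195 to 24895938 per KO mouse and 19676907 to 29124124 per WT mouse. The libraries were scaled with TMM factors, of 1.04 to 1.23 in KO and 0.788 to 0.982 in WT. With library size alone as the scaling, the median of all log2 fold changes shifted by 0.469 towards KO, so small changes depend on the scaling. Marker genes of hepatocytes were lower in KO for 8 of 8 genes tested, with a summed level of 26933 to 34639 RPKM in KO and 46669 to 63243 RPKM in WT. Of the markers of macrophages and Kupffer cells 9 of 11 were higher and none lower, at 182 to 322 RPKM in KO and 74.6 to 153 RPKM in WT, and of stellate cell and fibroblast markers 7 of 9 were higher and none lower, at 93.4 to 155 RPKM in KO and 51.8 to 104 RPKM in WT. Among the other lists 3 of 6 endothelial markers were higher, and 2 biliary markers were higher and 2 lower of 6 tested. Of the lymphocyte markers 1 of 2 tested was higher, and 0 of 2 tested neutrophil markers changed. Over all genes tested 28.2% were called higher and 31.0% lower. Fewer cells of a type and less RNA per cell cannot be told apart in whole liver, and the part of cell composition in the results below was not tested.

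Aldehyde dehydrogenase RNA overlapped in summed level between the genotypes, whereas summed aldo-keto reductase RNA was lower in KO livers with TMM scaling. The summed level of the 21 Aldh genes was 1807 RPKM in the lowest, 2330 in the median and 2752 in the highest KO liver, against 2285, 2547 and 2837 RPKM in WT livers, and the genotypes overlapped. The summed level of the 15 Akr genes was 725, 844 and 1034 RPKM in KO livers, against 1187, 1494 and 1676 RPKM in WT livers. Every KO liver lay below every WT liver in this sum, and the KO mean was 59.0% of the WT mean. Akr1c6 made up 35.7% ± 3.68 of the Akr sum in KO and 54.3% ± 3.00 in WT livers (10 mice each, mean ± SD). On library size alone the Akr sum was 896, 1010 and 1121 in KO and 1064, 1283 and 1386 in WT, now with overlap, and the Aldh sum was the other way round, with a median of 2733 in KO and 2157 in WT.

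**Figure D1:**
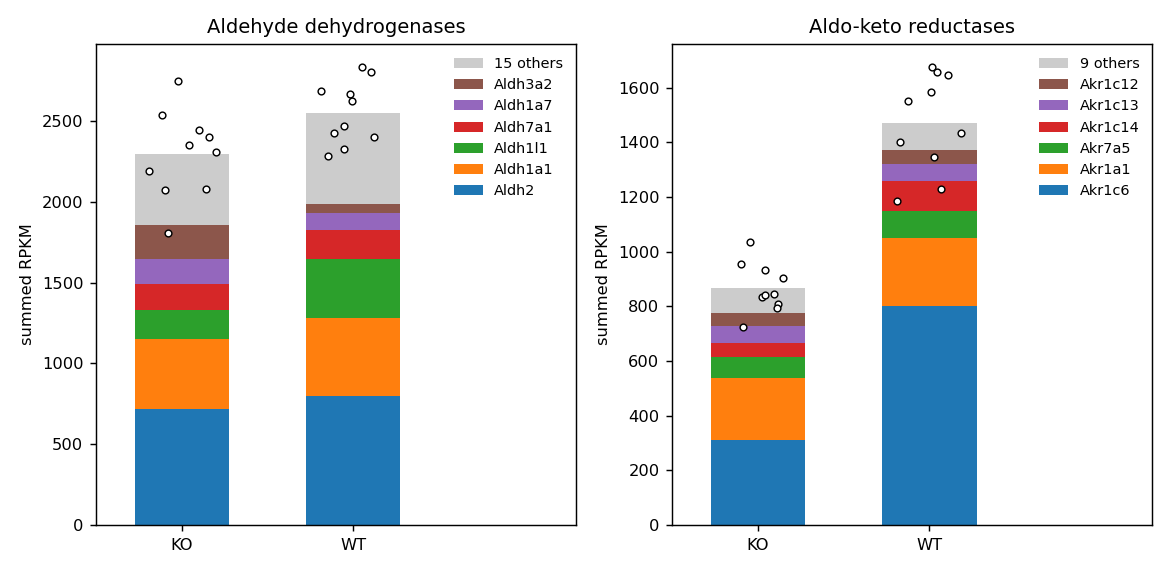
Stacked bars show the mean RPKM of the 6 most abundant genes of each family and of the remaining genes together, for KO and WT (n = 10 each), and open circles show the summed RPKM of each mouse. The 10 KO livers lie at 725 to 1034 RPKM for the Akr sum, all below the WT livers, while the Aldh sums overlap.

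Of the 36 genes, 30 had enough counts to be tested, 16 Aldh and 14 Akr. In the test over all 13670 genes (edgeR quasi-likelihood F test, Benjamini-Hochberg adjusted p under 0.05) 11 members were higher in KO, 13 were lower and 6 were not called. Over all genes tested 59.2% were called, 28.2% higher and 31.0% lower, so a call by itself was common in these data. All 14 tested Akr genes were called, 7 higher and 7 lower. Of the 16 tested Aldh genes 4 were higher, 6 lower and 6 not called. The median log2 fold change was -0.15 for Aldh and 0.0021 for Akr, beside -0.025 for all tested genes. A change of at least 2-fold was seen in 6 members that rose, where 7.69% of all genes did so, and in 3 that fell, where 4.10% did so. KO and WT values did not overlap in 2 members that were higher, Aldh3a2 and Akr1c18, and in 5 that were lower, Aldh1l1, Aldh8a1, Aldh16a1, Akr1c6 and Akr7a5. Over all genes 7.20% lay wholly above and 6.12% wholly below the WT values. On library size alone 19 members were called higher and 6 lower, beside 68.4% and 6.71% of all genes. The 11 genes higher in KO were called higher under both scalings. Of the 13 lower ones, 6 stayed lower on library size (Aldh1l1, Aldh8a1, Aldh16a1, Akr1c6, Akr1c14 and Akr1c20), 3 were not called (Aldh4a1, Aldh6a1 and Akr7a5) and 4 were called higher (Aldh7a1, Akr1a1, Akr1c12 and Akr1e1). Of the 6 not called with TMM, 4 were called higher on library size (Aldh1a3, Aldh2, Aldh5a1 and Aldh9a1).

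**Figure D2:**
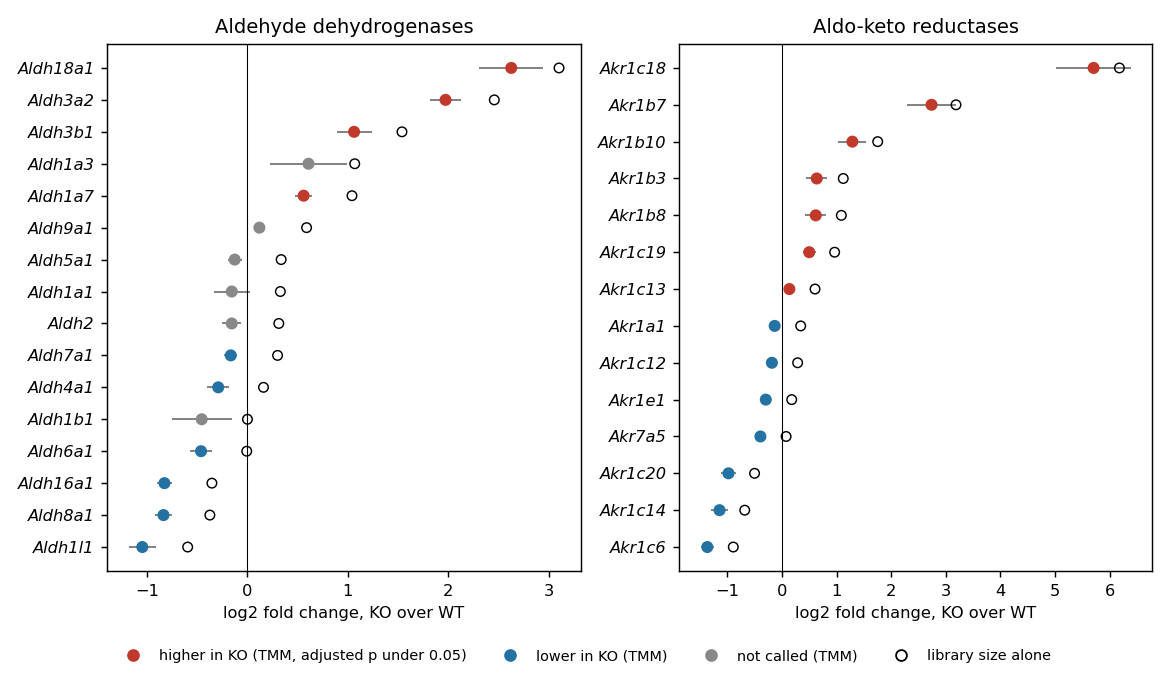
Log2 fold change of KO over WT for the 30 tested members, with horizontal bars for the SE of the TMM fit and open circles for the fit on library size alone. The open circles lie to the right of the filled points by about the same distance in every gene. Changes just below 0 become positive, while larger falls stay below 0 and rises stay above 0.

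In the Aldh1a group, which includes the enzymes that turn retinal into retinoic acid, Aldh1a7 rose in KO. Whether the Aldh1a7 enzyme acts on retinal was not measured here. Aldh1a7 (mm10 chr19:20692953-20727556, minus strand, 13 exon blocks) stood at 122 RPKM in the lowest, 163 in the median and 181 in the highest KO liver, against 74.5, 113 and 122 RPKM in WT livers. The ranges touched, with 9 of 10 KO livers above the highest WT liver (log2 fold change 0.56, SE 0.0860, edgeR adjusted p = 8.98e-06). Its neighbour Aldh1a1 (chr19:20601982-20643462, plus strand), the most abundant retinal dehydrogenase, had 356, 404.2 and 626 RPKM in KO and 236, 529 and 651 RPKM in WT. The KO range of Aldh1a1 lay within its WT range and no difference was called (log2 fold change -0.15, SE 0.178, edgeR adjusted p = 0.468). On library size alone its log2 fold change was 0.33, also not called. Its coefficient of variation was 19.7% in KO and 33.3% in WT, where it spanned 2.76-fold. The coding sequences of the pair were 91.6% identical, but only 1 window of 100 bases was shared by their transcripts. Aldh1a3 was close to the limit of detection at 0.0590 to 0.328 RPKM in KO and 0 to 0.240 RPKM in WT. It was not called with TMM (log2 fold change 0.61) and was called higher on library size alone (1.07). Aldh1a2 was below the filter on low counts, at 0.0174 to 0.134 RPKM in KO and 0 to 0.135 RPKM in WT.

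The 2 enzymes that oxidize 10-formyltetrahydrofolate to carbon dioxide and tetrahydrofolate differed in direction. Aldh1l1, the cytosolic enzyme (chr6:90550848-90599171, plus strand, 23 exon blocks), had 118, 182 and 248 RPKM as lowest, median and highest KO value and 284, 366 and 485 RPKM in WT. All KO livers lay below all WT livers, and the mean level was 48.6% of WT (log2 fold change -1.04, SE 0.134, edgeR adjusted p = 8.25e-07). On library size alone the log2 fold change was -0.59. Exons of 2 antisense genes overlap it, 1 of them Gm15756, and no source used here gives the strand setting of the counting, so their reads cannot be told apart. The same holds for parts of Aldh2, Aldh3a2, Aldh5a1, Aldh6a1, Aldh7a1 and Aldh16a1. Aldh1l2, the mitochondrial enzyme (chr10:83487447-83534140, minus strand), was below the filter, with counts of 6 to 122 per KO mouse and 1 to 8 per WT mouse. In RPKM these were 0.0398, 0.269 and 0.784 in KO and 0.00926, 0.0277 and 0.0539 in WT, and 9 of 10 KO livers were above the highest WT liver. In a fit with no filter its log2 fold change was 3.17 (edgeR adjusted p = 2.45e-06), and in the authors' deposited table it was 1.09 with an FDR of 0. The value in the authors' deposited table is a difference of mean log2(signal + 1), and adding 1 shrinks the fold of a gene this low.

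Aldh2, the mitochondrial enzyme that clears acetaldehyde, was the most abundant aldehyde dehydrogenase in both genotypes. Aldh2 stood at 460, 751 and 852 RPKM in KO livers and at 664, 796 and 890 RPKM in WT livers. The ranges overlapped broadly, no difference was called (log2 fold change -0.16, SE 0.0955, edgeR adjusted p = 0.166), and on library size alone it was called higher, at a log2 fold change of 0.31. Aldh1b1, another mitochondrial enzyme for acetaldehyde, varied most among the members above 10 RPKM. It ranged over 18.1 to 74.0 RPKM in KO and 22.6 to 76.4 RPKM in WT, with coefficients of variation of 55.5% in KO and 41.8% in WT, and was not called, at a log2 fold change of -0.45 with TMM and 0.0013 on library size alone.

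Both tested class 3 dehydrogenases, which oxidize fatty and aromatic aldehydes, rose in KO. Aldh3a2 (chr11:61244755-61267127, minus strand, 10 exon blocks) encodes the fatty aldehyde dehydrogenase of the endoplasmic reticulum, which acts on long-chain aldehydes from fatty alcohols and sphingolipids. It had 182, 207 and 234 RPKM in KO livers and 27.4, 54.3 and 72.4 RPKM in WT livers. The lowest KO liver lay well above the highest WT liver, and the mean was 3.93 times the WT mean (log2 fold change 1.97, SE 0.151, edgeR adjusted p = 6.14e-10). The coefficient of variation was 7.44% in KO and 31.6% in WT. Aldh3a2 was the tenth aldehyde dehydrogenase by mean level in WT and the third in KO, with 9.15% ± 1.42 of the family sum in KO and 2.04% ± 0.569 in WT livers (10 mice each, mean ± SD). Its level relative to Aldh2 in the same mouse, a ratio free of library scaling and chosen after the values were seen, was 0.232 to 0.479 in KO and 0.0358 to 0.0868 in WT, with no overlap. Aldh3b1, which oxidizes medium- and long-chain aldehydes of membrane lipids, was scarce, at 1.57, 2.26 and 3.81 RPKM in KO and 0.675, 1.16 and 1.63 RPKM in WT. Aldh3b1 rose to a mean 2.10 times that of WT, with 9 of 10 KO livers above the highest WT liver (log2 fold change 1.06, SE 0.174, edgeR adjusted p = 1.92e-05). Aldh3a1, Aldh3b2 and Aldh3b3 were below the filter, at no more than 0.0701 RPKM in KO and 0.0639 RPKM in WT.

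Of 8 genes grouped as dehydrogenases of amino acid and carnitine metabolism, with Aldh16a1 counted among them, 5 fell and 1 rose with TMM scaling. On library size alone 2 of the 8 were lower, Aldh8a1 and Aldh16a1, and 4 were higher. Aldh18a1 (chr19:40550257-40588463, minus strand, 19 exon blocks), which makes pyrroline-5-carboxylate from glutamate for proline and ornithine synthesis, had 0.295, 1.82 and 3.34 RPKM in KO and 0.0835, 0.311 and 0.444 RPKM in WT. In 9 of 10 KO livers it was above every WT liver, and KO_391 was the exception (log2 fold change 2.63, SE 0.319, edgeR adjusted p = 5.22e-07). Without that mouse the log2 fold change was 2.78. Aldh4a1, which oxidizes pyrroline-5-carboxylate on the way from proline to glutamate, was lower at -0.29 (edgeR adjusted p = 0.0240), a call that was lost without any of 5 single KO mice and that had the opposite sign on library size, at 0.16. Aldh8a1, which oxidizes 2-aminomuconic semialdehyde in the kynurenine pathway, had log2 fold change -0.83 and Aldh16a1, a family member thought to lack catalytic activity, had -0.82. Aldh8a1 stood at 61.2 to 112 RPKM in KO and 140 to 157 RPKM in WT, and Aldh16a1 at 14.4 to 21.1 RPKM in KO and 28.3 to 41.9 RPKM in WT, both with no overlap. Exons of Pih1d1, at a mean of 24.5 RPKM in KO and 31.7 RPKM in WT, overlap Aldh16a1 on the other strand. Aldh6a1, of valine and thymine breakdown, was lower at -0.46 (edgeR adjusted p = 7.37e-04) and at -0.0058 on library size alone. Aldh7a1, of lysine breakdown, had 124, 162 and 191 RPKM in KO and 160, 180 and 200 RPKM in WT, with 4 of 10 KO livers below the lowest WT liver (log2 fold change -0.16, SE 0.0665, edgeR adjusted p = 0.0379). That small change was called as higher, at 0.30, on library size alone. Aldh5a1, of GABA breakdown, and Aldh9a1, of carnitine synthesis, were not called with TMM, at log2 fold changes of -0.13 and 0.12, and were called higher on library size alone, at 0.34 and 0.59.

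**Figure D3:**
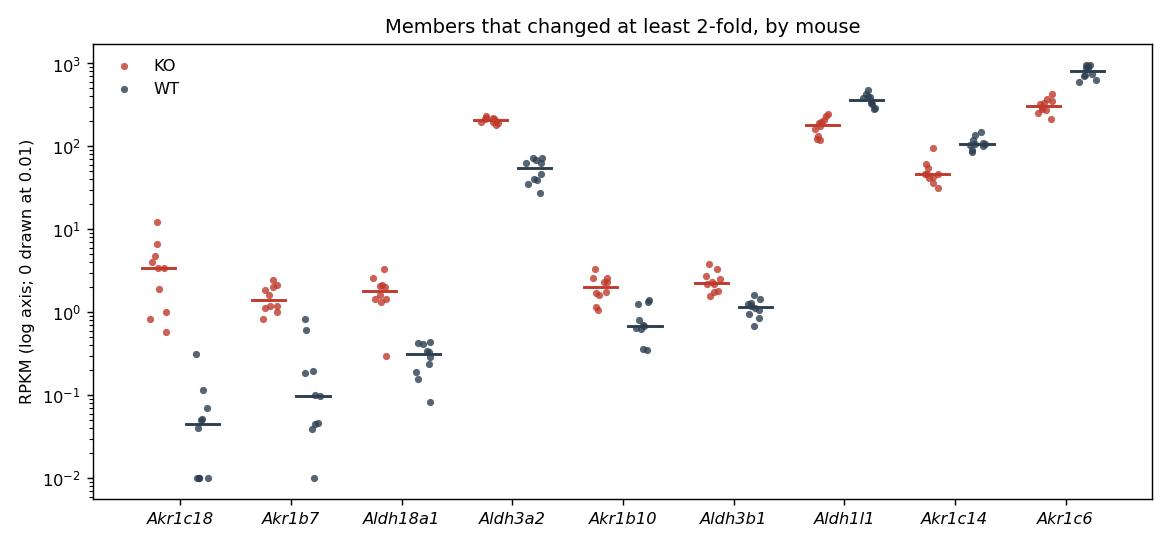
RPKM of each mouse on a log axis for the 9 members that changed at least 2-fold, KO left of WT, with lines at the medians and values of 0 drawn at 0.01. The 3 genes that fell are abundant in both genotypes, whereas, of the 6 that rose, Aldh3a2 alone exceeds 12.2 RPKM in any mouse.

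Among the aldo-keto reductases, Akr1a1, Akr1e1 and Akr7a5 fell slightly with TMM scaling. Akr1a1, the aldehyde reductase that in mice also serves ascorbate synthesis, had 209, 222 and 244 RPKM in KO and 214, 247 and 276 RPKM in WT. Its ranges overlapped, with 3 of 10 KO livers below the lowest WT liver, and the call (log2 fold change -0.13, SE 0.0548, edgeR adjusted p = 0.0417) was lost when any of 15 single mice was left out and was 0.34 on library size alone. Akr7a5 (chr4:139310744-139318786, plus strand), which reduces succinic semialdehyde and aflatoxin dialdehyde, had 65.9, 75.9 and 86.2 RPKM in KO and 87.1, 102 and 109 RPKM in WT. Every KO liver lay below every WT liver, by a small margin (log2 fold change -0.39, SE 0.0576, edgeR adjusted p = 4.97e-06), yet on library size alone it was 0.077 and not called. Akr1e1, which reduces 1,5-anhydrofructose, was lower at -0.29 with TMM and higher at 0.18 on library size alone.

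All 4 members of the aldose reductase group, which lie next to each other on chromosome 6, rose in KO from low levels. Akr1b7 (chr6:34412362-34423137, plus strand, 10 exon blocks), which reduces isocaproaldehyde and lipid peroxidation products, had 0.827, 1.40 and 2.47 RPKM in KO and 0, 0.0992 and 0.829 RPKM in WT. Of the 10 KO livers 9 lay above the highest WT liver (log2 fold change 2.74, SE 0.441, edgeR adjusted p = 1.72e-05), and the counts behind it were 21 to 88 in KO and 0 to 22 in WT. Akr1b10 (chr6:34384247-34396949, plus strand) had 1.06, 2.03 and 3.34 RPKM in KO and 0.351, 0.692 and 1.40 RPKM in WT, and 8 of 10 KO livers exceeded the highest WT liver (log2 fold change 1.29, SE 0.257, edgeR adjusted p = 1.88e-04). Akr1b3, aldose reductase itself, which turns glucose into sorbitol, and Akr1b8 were higher at 0.64 and 0.62 (edgeR adjusted p = 0.00716 and 0.00741). WT_441 had the highest WT value of Akr1b7, Akr1b8 and Akr1b10. Without it the log2 fold changes were 3.26 for Akr1b7, 0.73 for Akr1b8 and 1.41 for Akr1b10. Coding identity within the group was 71.3% to 89.2%, and no window of 100 bases was shared between their transcripts.

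The start regions of Akr1b7 and Akr1b10 are shown because these neighbours rose the most within the group. Both windows of 300 bases, 250 before to 50 after the RefSeq transcription start (GRCm38.p6, plus strand, chr6:34412112-34412411 and chr6:34383997-34384296), hold 1 copy of the nuclear receptor half-site AGGTCA on the strand opposite to the gene, which reads TGACCT here in capitals, starting 248 and 215 bases before the start.
Akr1b7: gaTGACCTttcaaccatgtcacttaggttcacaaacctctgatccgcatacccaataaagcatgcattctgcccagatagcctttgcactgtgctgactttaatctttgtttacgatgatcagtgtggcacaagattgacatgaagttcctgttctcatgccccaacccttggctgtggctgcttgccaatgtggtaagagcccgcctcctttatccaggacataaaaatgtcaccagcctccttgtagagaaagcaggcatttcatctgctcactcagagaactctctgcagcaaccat
Akr1b10: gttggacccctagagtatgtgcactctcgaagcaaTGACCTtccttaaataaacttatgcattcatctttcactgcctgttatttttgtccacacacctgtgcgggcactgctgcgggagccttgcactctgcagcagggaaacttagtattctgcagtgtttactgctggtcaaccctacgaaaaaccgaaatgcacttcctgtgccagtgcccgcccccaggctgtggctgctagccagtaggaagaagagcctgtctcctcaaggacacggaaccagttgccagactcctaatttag
When aligned the pair was 44.4% identical. Of the 28 members with a window in the table, 7 held AGGTCA on either strand (Akr1b7, Akr1b10, Akr1c18, Akr7a5, Aldh1l1, Aldh3b1 and Aldh6a1), beside 16.3% of all 32851 windows. The antioxidant response element core TGACNNNGC was found in 3 members (Akr1c19, Aldh1a2 and Aldh9a1), beside 12.4% of all windows, and the xenobiotic response element core GCGTG in 10, beside 32.4%. TGATGNAA, the core of the CEBP-ATF response element, was in 0 of 28, beside 3.97% of all windows. Each motif was searched on both strands, and a match or its absence describes these letters in these windows only.

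The hydroxysteroid dehydrogenases of the Akr1c group, clustered on chromosome 13, contained both the largest rise and the largest fall. Akr1c18 (chr13:4132627-4150631, minus strand, 9 exon blocks), 20alpha-hydroxysteroid dehydrogenase, which inactivates progesterone, was nearly silent in WT livers. It had 0.580, 3.41 and 12.2 RPKM in KO and 0, 0.0452 and 0.314 RPKM in WT. All KO livers lay above all WT livers, and within KO the highest value was 21.0 times the lowest. Counts were 17 to 306 in KO and 0 to 8 in WT, where 4 mice had 0, and the ratio of the mean levels was 60.5 (log2 fold change 5.71, SE 0.684, edgeR adjusted p = 5.58e-07). WT_415 held the highest WT count, 8, and without it the log2 fold change was 6.46. Akr1c6 (chr13:4434343-4457530, plus strand, 9 exon blocks), an estradiol 17beta-dehydrogenase and the most abundant aldo-keto reductase of both genotypes, had 213, 310 and 424 RPKM in KO and 592, 800 and 967 RPKM in WT. The highest KO liver lay below the lowest WT liver, and the KO mean was 38.9% of the WT mean (log2 fold change -1.37, SE 0.119, edgeR adjusted p = 3.56e-09). On library size alone it was -0.89. Akr1c14 (chr13:4059591-4090422, plus strand), a 3alpha-hydroxysteroid dehydrogenase that inactivates dihydrotestosterone, had 31.5, 46.9 and 95.7 RPKM in KO and 84.5, 106 and 150 RPKM in WT. KO_391 was the only KO liver above the lowest WT value (log2 fold change -1.14, SE 0.156, edgeR adjusted p = 2.36e-06). Akr1c20 was lower at -0.98 and Akr1c19 higher at 0.50 (edgeR adjusted p = 6.27e-06 and 8.28e-04). Their ratio in the same mouse, Akr1c19 over Akr1c20, was 1.04 to 2.27 in KO and 0.365 to 0.989 in WT, a pair chosen after the values were seen. Akr1c21, a 3(17)alpha-hydroxysteroid dehydrogenase, was below the filter at 0 to 0.420 RPKM in KO and 0.0965 to 0.707 RPKM in WT.

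**Figure D4:**
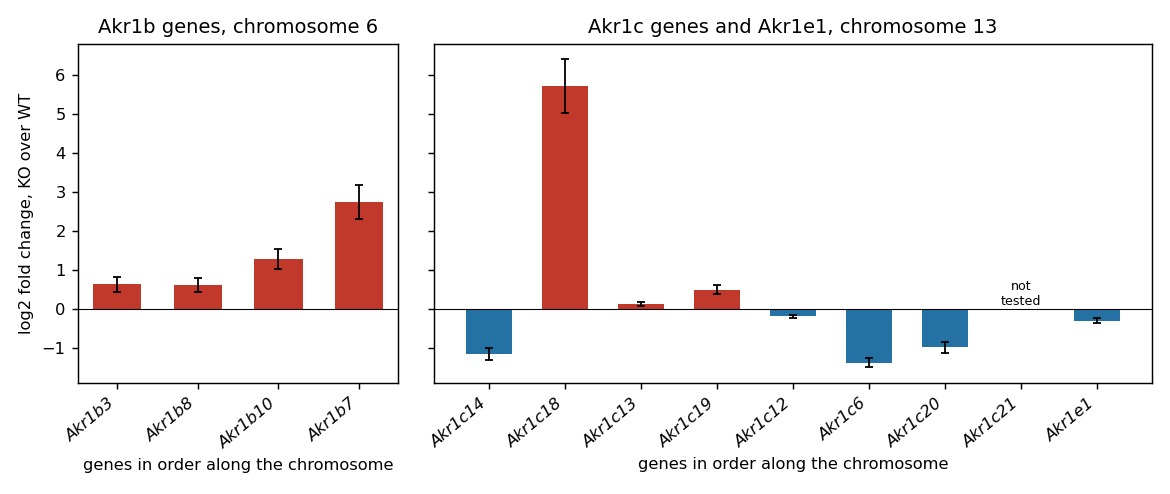
Bars show the log2 fold change of KO over WT (SE as error bars) for the Akr1b and Akr1c clusters and Akr1e1, in gene order along the chromosome. The 4 Akr1b genes are all higher in KO, while in the Akr1c cluster higher and lower genes lie next to each other.

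Along chromosome 13 the order was Akr1c14, Akr1c18, Akr1c13, Akr1c19, Akr1c12, Akr1c6, Akr1c20, Akr1c21 and Akr1e1, so genes that fell flanked 3 neighbours that rose. Within the cluster Akr1c12 and Akr1c13 were the most alike, with 96.2% identical coding sequences, and shared 11.5% of their transcript windows of 100 bases, so fragments from those stretches could be counted for either. Akr1c13 had 59.0, 63.6 and 74.6 RPKM in KO and 53.5, 58.5 and 65.5 RPKM in WT, with 4 of 10 KO livers above the highest WT liver (log2 fold change 0.14, SE 0.0539, edgeR adjusted p = 0.0333). Akr1c12 had 43.3, 47.2 and 53.4 RPKM in KO and 49.5, 53.1 and 58.9 RPKM in WT (log2 fold change -0.18, SE 0.0444, edgeR adjusted p = 0.00124). Both were among the smallest changes called, and on library size alone both were higher, at 0.61 and 0.29. The call of Akr1c13 was lost without any of 4 single WT mice. Set against Akr1c13 in the same mouse, Akr1c6 was 3.38 to 7.17 times as high in KO and 10.1 to 18.1 times as high in WT, with no overlap.

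The start regions of this pair are shown because 2 genes that are so alike gave calls of opposite sign with TMM. The windows (RefSeq, GRCm38.p6) are chr13:4279350-4279649, minus strand, for Akr1c12 and chr13:4190937-4191236, plus strand, for Akr1c13, and capitals mark the bases that differ or have no partner when they are aligned. They were 93.4% identical, with 12 substitutions, and none of the 4 motifs was in either.
Akr1c12: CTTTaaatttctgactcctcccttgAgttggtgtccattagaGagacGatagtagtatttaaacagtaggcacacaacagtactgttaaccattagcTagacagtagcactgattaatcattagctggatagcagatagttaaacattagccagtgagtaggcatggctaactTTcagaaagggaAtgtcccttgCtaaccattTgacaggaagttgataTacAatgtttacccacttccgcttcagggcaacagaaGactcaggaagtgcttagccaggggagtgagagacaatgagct
Akr1c13: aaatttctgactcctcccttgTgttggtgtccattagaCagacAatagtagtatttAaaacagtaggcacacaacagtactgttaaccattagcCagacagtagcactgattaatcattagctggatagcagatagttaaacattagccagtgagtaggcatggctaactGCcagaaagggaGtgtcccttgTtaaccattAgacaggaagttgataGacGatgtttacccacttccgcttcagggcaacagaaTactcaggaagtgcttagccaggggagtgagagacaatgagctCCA

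Genes of neighbouring pathways, taken from lists chosen with earlier results of these data known, were read in the same fit. Over all genes tested, 28.2% were called higher and 31.0% lower with TMM, against 68.4% and 6.71% on library size alone. The counts below stand beside these shares. Of the alcohol dehydrogenases, which make the aldehydes that Aldh enzymes remove, 3 of 4 tested genes were lower and 1 higher. Adh4 was at 32.5 ± 10.2 RPKM in KO and 80.8 ± 16.6 RPKM in WT, Adh7 at 5.58 ± 1.91 RPKM in KO and 14.6 ± 2.95 RPKM in WT, and Adh5, which clears formaldehyde bound to glutathione, at 149 ± 15.5 in KO and 237 ± 12.1 RPKM in WT livers (10 mice each, mean ± SD). Adh1, the most abundant, was higher, at 1327 ± 137 RPKM in KO and 1072 ± 116 RPKM in WT. Of 25 tested genes of retinoid handling 9 were higher and 8 lower, with a median log2 fold change of 0.013, and on library size alone 15 were higher and 4 lower. Dhrs9, a retinol dehydrogenase, was higher at 5.75 ± 1.07 RPKM in KO and 0.546 ± 0.354 RPKM in WT, and Retsat, retinol saturase, at 499.7 ± 73.8 RPKM in KO and 187 ± 56.8 RPKM in WT. Rdh5 and Rdh7, also retinol dehydrogenases, were lower, at log2 fold changes of -0.94 and -0.81. Of 14 other carbonyl reductases and aldehyde oxidases tested 5 were higher and 6 lower, and on library size alone 10 were higher and 4 lower. The aldehyde oxidase Aox3 was at 31.7 ± 11.3 RPKM in KO and 202 ± 37.9 RPKM in WT, and carbonyl reductase 3, Cbr3, at 4.74 ± 2.40 in KO and 0.437 ± 0.180 RPKM in WT. Dcxr, which reduces xylulose, and Hagh, of the glyoxalase pathway, were lower, at -1.38 and -0.74.

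Of 23 tested NRF2 targets 18 were higher and 1 lower in KO, beside 28.2% and 31.0% of all genes, with a median log2 fold change of 0.76. On library size alone 22 were higher and 0 lower, beside 68.4% and 6.71% of all genes. The smallest adjusted p-values were those of Srxn1, sulfiredoxin, at 2.88, Gsr, glutathione reductase, at 1.08, Abcc3, an export pump, at 1.44, and Ugdh, UDP-glucose dehydrogenase, at 1.12. Srxn1 stood at 89.4 ± 26.3 RPKM in KO and 12.2 ± 1.53 RPKM in WT. Of 5 tested AHR targets 3 were higher and 1 lower. Nqo1, which is on both lists, was higher at 2.10, Tiparp at 0.97 and Cyp1b1 at 0.65. Cyp1b1 was scarce, at a mean of 0.242 RPKM in KO and 0.153 RPKM in WT. Cyp1a1 was not called (log2 fold change 0.14, edgeR adjusted p = 0.701). Cyp1a2, an oxidase of pericentral hepatocytes, was lower at 77.1 ± 30.1 RPKM in KO and 394 ± 126 RPKM in WT (log2 fold change -2.36, edgeR adjusted p = 2.05e-08). When single mice were left out, 2 to 3 AHR targets were higher.

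**Figure D5:**
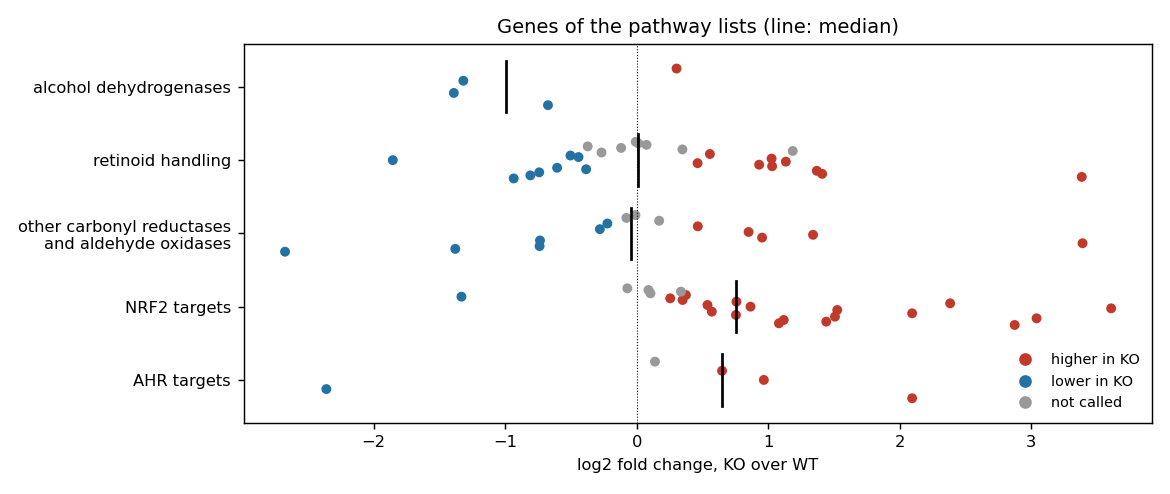
Each point is the log2 fold change of KO over WT of 1 tested gene, in 5 lists, with a line at the median of the list. Most NRF2 targets lie right of 0, with a median of 0.76, while the retinoid and carbonyl reductase lists spread to both sides.

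Over the 24 members called, KO_391 had the value nearest to WT in 10 and KO_453 in 5. In 6 of the 9 members changed at least 2-fold it was KO_391. KO_391 was nearest to WT in 7 of the 13 lower members and in 3 of the 11 higher ones. Its Hsd17b12 level, 27.7 RPKM, was within the range of the other KO mice, and its share of fragments mapped to several places, 8.51%, was the highest of the KO mice, whose lowest was 2.10%, and below the highest WT mouse, at 14.2%. Its summed hepatocyte markers, 26933 RPKM, were the lowest of the 20 mice. With TMM scaling KO_391 had the highest sums of both families among KO mice, 2752 RPKM for Aldh and 1034 RPKM for Akr. Its TMM factor, 1.04, was the lowest of the KO mice, and the RPKM of each mouse is divided by its factor. On library size alone the highest KO sums, 2883 for Aldh and 1121 for Akr, were not those of KO_391. KO_416 had the lowest KO value in 10 of 30 tested members, 8 of them Aldh genes. For members above 10 RPKM the coefficient of variation was 6.50% to 55.5% (median 16.4%) for Aldh in KO and 4.46% to 41.8% (median 12.9%) in WT, and 5.79% to 35.5% (median 9.93%) for Akr in KO and 5.24% to 25.2% (median 10.8%) in WT.

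The authors' deposited table of their own KO against WT test held 30 of the members, and 20 of them had an FDR under 0.05, 11 up and 9 down, beside 40.9% of all its 12820 genes. Of those 20 in the authors' deposited table, 18 had the direction of the calls given here. The other 2 in the authors' deposited table were Aldh1b1, not called here, and Aldh1l2, which was below the filter here and called higher with no filter, and 6 members were called here only (Aldh4a1, Aldh7a1, Akr1a1, Akr1c12, Akr1c13 and Akr1e1). In the authors' deposited table of gene ontology terms, aldo-keto reductase (NADP) activity, with 21 annotated genes, had an FDR of 0.0135, and retinol dehydrogenase activity, with 15, had 8.64e-04. In the authors' deposited table oxidoreductase activity on the aldehyde or oxo group of donors, with 43 genes, had an FDR of 0.0489. The narrower term with NAD or NADP as acceptor, with 36 genes, had 0.102 in the authors' deposited table. In the authors' deposited table cellular aldehyde metabolism had 0.0531, retinoic acid metabolism 0.0997, retinoid metabolism 0.00808 and retinol metabolism 0.0398. Retinoid binding had 0.00385 and alditol:NADP+ 1-oxidoreductase activity 0.0378 in the authors' deposited table. The other aldehyde and retinoid terms had 0.217 or more in the authors' deposited table. An FDR under 0.05 was given to 143 of 668 molecular function terms and 587 of 4004 biological process terms in the authors' deposited table.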

How the data were processed

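RNA from 10 KO and 10 WT livers was measured by RNA-seq. The authors deposited raw fragment counts per gene, which carry Rsubread and RefSeq mm10 in their file names, per the file headers and names. HISAT2 2.0.5 and DESeq2 are named in the submitters' processing notes with no role. The deposited normalized signal equalled CPM over the TMM effective library size, and the deposited RPKM equalled that signal per kilobase, within a relative deviation of 1.41e-13. The deposited log2 fold changes, p-values and FDR values come from the authors' own test, which carries the name ROTS per the file names. Strand setting and trimming are not given in the sources used here, and 20 columns of statistics that belong to no single mouse were not used.

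Counts were tested with edgeR 4.0.16 in R 4.3.3 (quasi-likelihood F test, robust, filterByExpr with a minimum count of 10 and total of 15, TMM, KO against WT with no covariate). This left 13670 of 20914 genes, and the filtered genes carried 0.0858% of all fragments. No symbol was given for 620 genes. Benjamini-Hochberg adjustment ran over every gene tested, with calls at 0.05. The SE is the absolute log2 fold change over the square root of F. The fit was tested on simulated data. No pair of libraries within a genotype agreed within sampling noise (chi-square per degree of freedom at least 12.8 over 90 pairs). Named members are all members of the families. For the pathway lists the 4 genes with the smallest adjusted p were named, and for the AHR list also Cyp1a1. Members and lists were chosen with earlier results of these data known, and the ratios, the half-site and the CEBP-ATF motif were chosen after values were seen. Alternatives were other scalings and filters, limma 3.58.1, DESeq2 1.42.0 size factors, pseudocounts and leaving out each mouse. Identity was computed from coding sequences of GENCODE transcripts in place of proteins, and promoter windows came from RefSeq.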

Additional observations from a re-analysis of the deposited data

Results flagged for a closer look

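In 60 groups of 10 mice, 1 genotype and 1 tested member each, 2 had a mouse that stood apart by Dixon's criterion on a log scale. Chance gives about 1 in 20 groups. The gap over range below is that of the log values and not of the RPKM printed beside it. Aldh18a1 was at 0.295 RPKM in KO_391, and at 1.33 to 3.34 RPKM in the other KO mice (gap over range 0.613 on the log scale). Aldh1a7 was at 74.5 RPKM in WT_429, and at 96.0 to 122 RPKM in the other WT mice (gap over range 0.511 on the log scale).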

How the results depend on the processing

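No paired analysis was possible because the mouse numbers in the labels differ between KO and WT. Library size alone, which moved the median of all genes towards KO, gave 9355 genes higher and 917 lower, for Aldh 9 higher and 3 lower, for Akr 3 lower, for retinoid handling 15 higher and 4 lower, for other carbonyl reductases 10 higher and for NRF2 targets 0 lower. The median log2 fold change became 0.32 for Aldh and 0.48 for Akr, and the log2 ratio of the summed levels became 0.34 for Aldh and -0.35 for Akr, both of these ratios an alternative chosen after seeing the data. With library size alone the sign reversed for Aldh1a1 (0.33) and Aldh1b1 (0.0013), not called under either scaling, and for Aldh2 (0.31), Aldh4a1 (0.16), Aldh5a1 (0.34), Aldh7a1 (0.30), Akr1a1 (0.34), Akr1c12 (0.29), Akr1e1 (0.18) and Akr7a5 (0.077). With no filter 5 alcohol dehydrogenases were lower. Under the stricter filter, which did not test Akr1c18 and Aldh1a3, the Akr median was -0.13. Leaving out single mice gave 4 to 6 Aldh genes higher and 4 to 6 lower, and 6 to 7 Akr genes in each direction. Akr1a1 lost its call in 15 of 20 such fits and Aldh7a1 in 12, while Aldh9a1, not called in the report, was called higher in 8 of them and in 6 other alternatives. The 9 members changed at least 2-fold kept direction and call in every alternative that tested them. Low counts limit Akr1c18, Akr1b7 and Aldh18a1: with a pseudocount of 1 their log2 fold changes were 1.90, 1.06 and 1.08. Mice of 1 genotype may share litters or cages, which the labels do not give, so p-values measure the spread between these samples.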
